A study of Mus musculus with 24 samples.

Results

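A set of 9 transcription factors that establish or restrain the fates of helper and regulatory T cells were followed in conventional CD4+ T cells: Tbx21, Gata3, Bcl6, Foxp3, Ikzf2, Prdm1, Irf4, Maf and Id2. They were chosen by name, with earlier results of these data known, and they are 9 of 55414 genes listed in the count table. All 9 had enough counts to be tested. The cells came from mice that share the nuclear genome of C57BL/6J and differ in their mitochondrial DNA, which is that of C57BL/6J (mtDNA B6, labelled WT) or that of the NZB strain (mtDNA NZB). Splenic Tconv CD4+ cells (labelled TE, and described in the methods as CD4+ CD25- cells from a magnetic sort) were read at rest or after 72 h with CD3/CD28 beads plus IL-2. The beads stimulate T cells through their antigen receptor and CD28. Each of the 4 groups, resting mtDNA B6, activated mtDNA B6, resting mtDNA NZB and activated mtDNA NZB, held 6 libraries. The labels give neither the age nor the sex of the mice, nor whether each library came from its own animal, so p-values measure the spread between these libraries, part of which may be technical. The methods state that isolated cells were divided between rest and activation. Resting and activated libraries may therefore share animals, whereas the fit treats all libraries as separate.

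A naive helper T cell takes on a specialised program when its antigen receptor, costimulation and cytokines switch on lineage transcription factors. T-bet (Tbx21) directs the Th1 program and GATA3 (Gata3) the Th2 program, BCL6 (Bcl6) directs follicular helper cells, and FOXP3 (Foxp3) defines regulatory T cells, in many of which Helios (Ikzf2) is also found. BLIMP1 (Prdm1) and BCL6 repress each other, IRF4 (Irf4) relays the strength of receptor signals, c-MAF (Maf) acts in several helper programs including IL-10 and IL-21 production, and ID2 (Id2) blocks the DNA binding of E proteins.

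In the GRCm39 genome the members lie on 9 chromosomes. Tbx21 is at chr11:96988897-97006158, Gata3 at chr2:9861889-9894845, Bcl6 at chr16:23783802-23807602, Foxp3 at chrX:7439883-7461484, Ikzf2 at chr1:69570373-69727004, Prdm1 at chr10:44313171-44404497, Irf4 at chr13:30933209-30950959, Maf at chr8:116409632-116434579 and Id2 at chr12:25143798-25147282. Foxp3 and Irf4 lie on the plus strand and the other members on the minus strand. Reads were counted in the last 1000 bases of transcripts. There Foxp3 overlaps the protein-coding gene Ccdc22 and a predicted gene, both on the opposite strand. Bcl6 and Ikzf2 each overlap a predicted gene on the opposite strand. The use of strand in the counting is not given in the sources used here, so for these 3 genes reads of a partner cannot be told apart.

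The promoters of the members, taken from 250 bases before to 50 bases after the start of the canonical transcript, were searched on both strands for a STAT motif, TTCNNNGAA, and an AP-1 motif, TGANTCA. STAT proteins carry cytokine signals and AP-1 proteins carry receptor signals to DNA. Each motif was found in 1 of the 9 promoters. The STAT motif is also in 8.81% and the AP-1 motif in 7.14% of all 21770 promoters of that length. The only matches were in the genes of BCL6 and BLIMP1, a pair of mutual repressors, and they are shown with 6 bases on either side, 5′ to 3′ on the minus strand, with the motif in capitals. The Bcl6 window, chr16:23807706-23807726, starts its motif 118 bases before the start site. The Prdm1 window, chr10:44334780-44334798, starts its motif 12 bases before the start of the canonical transcript, which itself begins inside the span of the gene.
Bcl6: aattagTTCTCAGAAttccag
Prdm1: taggagTGAATCAgaccgt
A match describes these letters and is not a measured binding site.

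Levels are given as CPM, counts of unique molecules (UMI counts) relative to the library's total after TMM scaling. Libraries held 2157475 to 6449395 UMI counts, apart from replicate 1 of activated mtDNA NZB with 641467 and replicate 2 of resting mtDNA NZB with 51409. In that smallest library 0 counts allow a level of up to 50.2 CPM (3 counts, counting error only). Its values are therefore left out of the ranges below, which cover 5 resting mtDNA NZB libraries, but it is kept in every fit. Il2ra, a gene of activated T cells, checked the labels: it lay at 1.37 to 5.71 CPM in the resting libraries with over 500000 counts and at 42.0 to 180 CPM in the activated ones. Cd4 lay between 411 and 776 CPM in all of these libraries. Marker sums of some other cells fell with activation. Myeloid markers went from 481 to 3081 CPM to 12.4 to 118 CPM, and granulocyte markers from 322 to 17572 CPM to 5.26 to 152 CPM. Erythroid markers went from 93.7 to 6774 CPM to 2.48 to 161 CPM, and dendritic markers from 23.4 to 53.7 CPM to 1.96 to 20.6 CPM. The T cell marker sum lay between 2615 and 5412 CPM, and that of B and plasma cells between 107 and 1358 CPM. In bulk RNA, fewer cells of a type and less RNA per cell cannot be told apart.

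**Figure D1:**
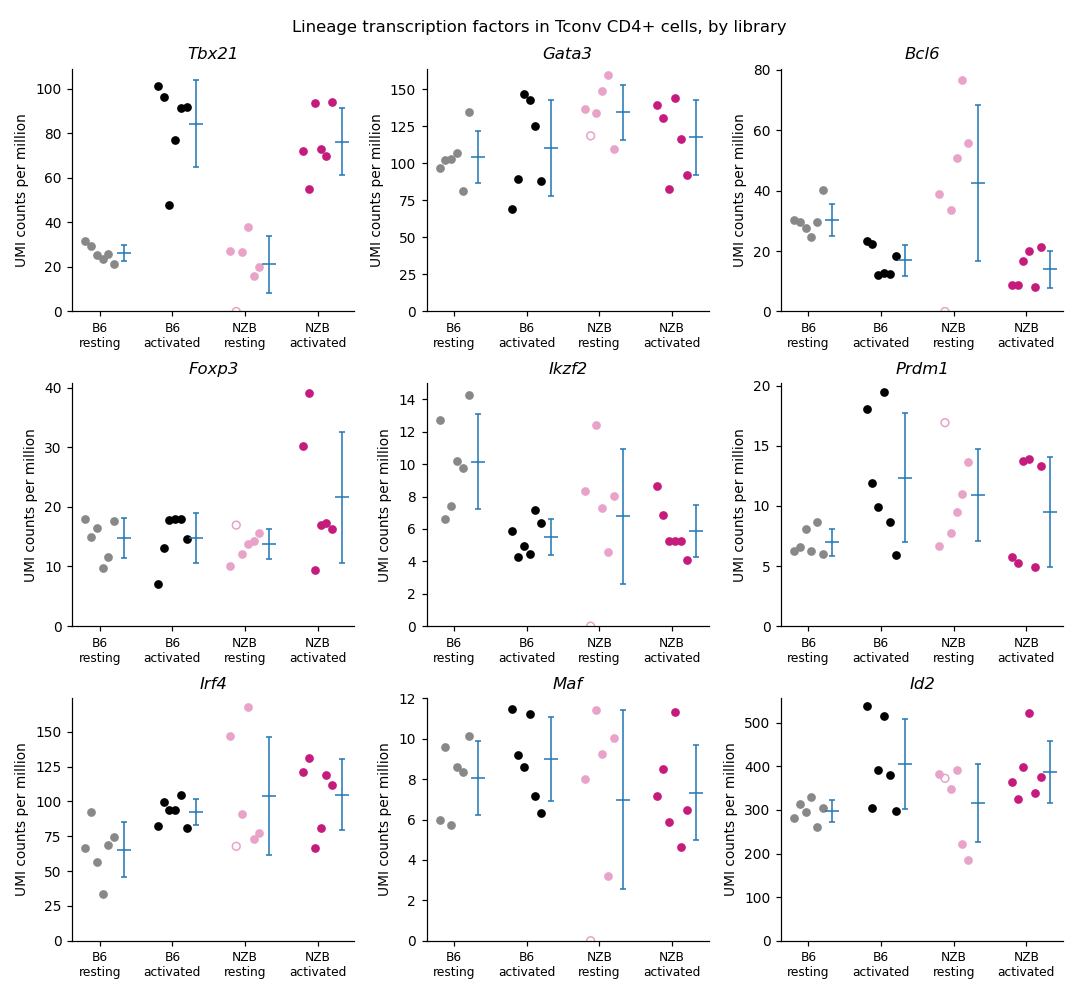
Level (CPM) of the 9 lineage factors in each library (points), by group, with the mean and SD of the 6 libraries beside them; the open point is the library with 51409 counts. Tbx21 was higher in all activated libraries than in all resting ones, and Bcl6 was lower in all activated libraries than in every resting library but the open point.

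The first question was how activation moved these factors. In mtDNA B6 cells Tbx21, Prdm1 and Id2 rose and Bcl6 and Ikzf2 fell, and in mtDNA NZB cells Tbx21 and Foxp3 rose and Bcl6 fell, at an adjusted p of at most 0.05 (quasi-likelihood test of edgeR, with p-values adjusted by Benjamini and Hochberg's method for the 10566 genes tested). Thus 3 of 9 members rose and 2 fell in mtDNA B6 cells, where 22.4% of all genes rose and 24.5% fell. For mtDNA NZB 2 of 9 rose and 1 fell, where 25.2% of all genes rose and 28.4% fell. The median log2 fold change of the 9 members was 0.17 for mtDNA B6 and -0.07 for mtDNA NZB, beside -0.03 and -0.06 over all genes tested. These counts lay near that background and are no result about the members as a set. Libraries of resting and activated cells did not overlap for Tbx21 in the upward and Bcl6 in the downward direction in either haplotype, again leaving out the smallest library. Such separation was seen for 15.4% of genes upward and 16.4% downward in mtDNA B6 cells and for 14.1% and 13.9% in mtDNA NZB cells.

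Tbx21 gave the widest rise of the members. Its level in resting mtDNA B6 libraries ran from 21.4 to 31.4 CPM with a median of 25.6, and in activated ones from 47.9 to 101 CPM with a median of 91.5. In resting mtDNA NZB libraries it ran from 16.0 to 37.8 CPM with a median of 26.5, and in activated ones from 55.1 to 94.1 CPM with a median of 72.3. The lowest activated library of either haplotype thus stood above the highest resting one. The log2 fold change of Tbx21 was 1.68 ± 0.19 (SE), a 3.21-fold rise, in mtDNA B6 cells (edgeR quasi-likelihood adjusted p = 1.39e-07) and 1.59 ± 0.21, a 3.01-fold rise, in mtDNA NZB cells (adjusted p = 6.36e-07). The call held in each of the 11 other settings tried and without any one library.

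T-bet is also made by CD8 T cells and NK cells, and markers of those cells moved with activation. Over 8 markers the sum was 122 to 181 CPM in resting and 288 to 928 CPM in activated mtDNA B6 libraries, and 71.5 to 203 CPM in resting and 94.9 to 756 CPM in activated mtDNA NZB libraries. Cd8a, a subunit of the CD8 co-receptor, changed by 2.35 ± 0.42 and 1.90 ± 0.44 (log2, SE), and Gzma, a granule protease, by 3.11 ± 0.58 and 2.25 ± 0.64, in mtDNA B6 and mtDNA NZB cells. All 4 changes passed the test. Of the 8 markers 5 were tested, with 3 higher and 1 lower in each haplotype. The lower one was Klrb1c, which encodes the NK cell receptor NK1.1, at 6.38 to 13.3 CPM in resting and 0.61 to 3.39 CPM in activated mtDNA B6 libraries, and at 5.22 to 13.4 CPM and 0 to 2.28 CPM in mtDNA NZB libraries, among those with over 500000 counts. Prf1, which encodes perforin, did not pass the test, with 0.60 ± 0.47 (edgeR adjusted p = 0.304) and 0.38 ± 0.51 (adjusted p = 0.545). The NK cell receptor Ncr1 stayed at or below 1.1 CPM and Klra8 was at 0 in every library with over 500000 counts. Replicates 1 and 2 of activated mtDNA NZB had marker sums of 94.9 and 110 CPM, within the resting range, and their Tbx21 levels of 71.9 and 55.1 CPM lay above every resting library. In mtDNA NZB, activated replicates 6 and 3 had the highest sums, 756 and 557 CPM, and the highest Tbx21, 94.1 and 93.6 CPM. In mtDNA B6, activated replicate 1 had the highest of both, 928 and 101 CPM, and replicate 3 the lowest, 288 and 47.9 CPM. The part of such cells in the Tbx21 result was not tested.

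**Figure D2:**
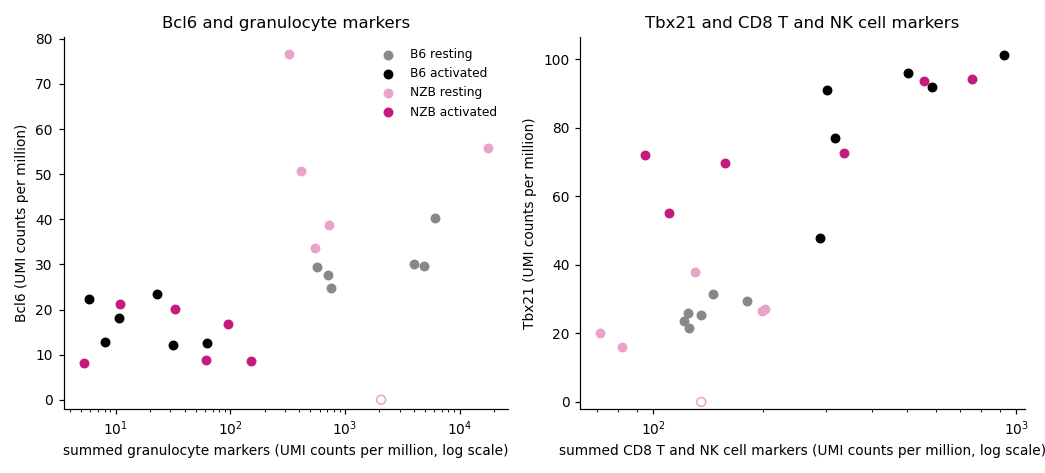
Bcl6 against the summed granulocyte markers (left) and Tbx21 against the summed CD8 T and NK cell markers (right) in each library, all in CPM, with a log scale on the x axes; the open point is the library with 51409 counts. The resting mtDNA NZB library with the lowest granulocyte sum, 322 CPM, had the highest Bcl6 level, 76.5 CPM. The resting mtDNA B6 library with the highest sum of its group, 6063 CPM, had that group's highest Bcl6, 40.2 CPM. Activated libraries with 94.9 and 110 CPM of CD8 and NK markers had Tbx21 levels above all resting ones. Those with the highest sums, 756 CPM in mtDNA NZB and 928 CPM in mtDNA B6, had the highest Tbx21 of their group, 94.1 and 101 CPM. The part of these cells was not tested.

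Reads per UMI divided the libraries into 3 sets of 8, which are not the study's groups but are spread unevenly over them. Set 1 held 5 activated and 0 resting mtDNA B6 libraries. Among resting libraries, set 2 held 4 of mtDNA B6 and 1 of mtDNA NZB, and set 3 held 2 and 4. Resting and activated mtDNA B6 libraries share only set 2, with 4 and 1 libraries, where Tbx21 was 1.72 higher in the activated library on the log2 scale. In mtDNA NZB cells the difference was 1.59, 1.21 and 1.80 in sets 1, 2 and 3. Sets 1 and 2 each held 1 resting and 2 activated libraries for this, and set 3 held 3 and 2. Tbx21 therefore differed in the same direction within every set that allows the comparison, though all but set 3 of mtDNA NZB had 1 library in a state.

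Gata3, the Th2 factor, did not pass the test in either haplotype. It ran from 81.5 to 135 CPM (median 103) in resting and from 69.5 to 147 CPM (median 108) in activated mtDNA B6 libraries. Among mtDNA NZB libraries it ran from 110 to 159 CPM (median 137) at rest and from 82.8 to 144 CPM (median 124) after activation. The ranges overlapped in both haplotypes. Its log2 fold changes were 0.09 ± 0.17 (edgeR adjusted p = 0.698; 95% interval -0.26 to 0.43) and -0.23 ± 0.18 (adjusted p = 0.279; 95% interval -0.59 to 0.13). As log2 ratios within a library, Tbx21 over Gata3 averaged -1.96 ± 0.38 (SD, n = 6) at rest and -0.38 ± 0.78 after activation in mtDNA B6 cells. With mtDNA NZB the averages were -2.45 ± 0.49 (SD, n = 5) and -0.62 ± 0.58 (n = 6). These ratios describe change between groups and not the amounts of the proteins.

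Genes downstream of the Th1 and Th2 programs were read from lists. Of 11 Th1 genes 10 were tested, and 4 rose and 1 fell in mtDNA B6 cells while 2 rose and 3 fell in mtDNA NZB cells. Cxcr3, a chemokine receptor of Th1 cells, rose in both, by 1.09 ± 0.16 and 1.17 ± 0.17 on the log2 scale, as did Il12rb2, the signalling chain of the IL-12 receptor, by 3.98 ± 0.39 and 3.05 ± 0.42. The cytokine gene Ifng did not pass the test, with -0.66 ± 0.36 (edgeR adjusted p = 0.133) and -0.85 ± 0.38 (adjusted p = 0.0609). Of 10 Th2 genes 5 were tested, with 3 higher in mtDNA B6 cells and 2 higher and 1 lower in mtDNA NZB cells. The Th2 cytokine Il13 rose by 3.85 ± 0.59 and 3.81 ± 0.63. Il4 did not pass the test at 0.21 ± 0.41 (adjusted p = 0.706) and -0.69 ± 0.44 (adjusted p = 0.193), and Il5 had at most 23 counts in a library and was not tested.

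Bcl6 was the member with the widest fall. It ran from 24.7 to 40.2 CPM (median 29.5) in resting and from 12.2 to 23.4 CPM (median 15.5) in activated mtDNA B6 libraries. For mtDNA NZB it ran from 33.6 to 76.5 CPM (median 50.7) at rest and from 8.05 to 21.3 CPM (median 12.7) after activation. No activated library reached the lowest resting value of its haplotype, apart from the smallest library, whose 0 counts set no useful limit. The log2 fold change of Bcl6 was -0.84 ± 0.26 for mtDNA B6 (edgeR quasi-likelihood adjusted p = 0.00892), a 1.79-fold fall, and -1.76 ± 0.27 in mtDNA NZB cells (adjusted p = 6.73e-06), a 3.39-fold fall. The fall in mtDNA B6 cells did not pass with the library set as a term (adjusted p = 0.0616). Within set 2, with 4 resting and 1 activated library, it was -1.12, and in mtDNA NZB cells the 3 sets gave -1.31, -1.49 and -2.26. In mtDNA NZB cells, sets 1 and 2 each had 1 resting library.

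BCL6 can also be made by B cells and myeloid cells, whose share can differ between libraries. Granulocyte and myeloid markers fell with activation as given above. Among the resting mtDNA NZB libraries, replicate 5 had the lowest granulocyte sum (322 CPM) and the highest Bcl6 level (76.5 CPM), and replicate 6 had the highest granulocyte sum (17572 CPM) with Bcl6 at 55.8 CPM. In resting mtDNA B6 cells the 3 libraries with granulocyte sums of 3963 to 6063 CPM had Bcl6 levels of 30.2, 29.6 and 40.2 CPM, and the 3 with sums of 565 to 749 CPM had 29.5, 27.7 and 24.7 CPM. Among activated mtDNA NZB libraries, replicates 3, 4 and 6 had B and plasma cell sums of 763 to 1212 CPM. Their Bcl6 was 16.7 to 21.3 CPM. Replicates 1, 2 and 5 had sums of 107 to 354 CPM and Bcl6 at 8.05 to 8.81 CPM. In activated mtDNA B6 cells, replicates 1 and 2 had the highest sums, 838 and 939 CPM, and the highest Bcl6, 23.4 and 22.3 CPM. At rest, replicate 5 of mtDNA NZB had its group's lowest B and plasma cell sum, 268 CPM, and highest Bcl6, 76.5 CPM. In resting mtDNA B6 cells the library with the lowest sum, 262 CPM, had the lowest Bcl6, 24.7 CPM. The one with the highest sum, 1171 CPM, had 29.5 CPM. The part of these cells in the Bcl6 result was not tested.

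Prdm1, the repressor opposed to BCL6, rose in mtDNA B6 cells and did not pass the test in mtDNA NZB cells. It ran from 6.02 to 8.69 CPM (median 6.44) in resting and from 5.94 to 19.5 CPM (median 10.9) in activated mtDNA B6 libraries, so that the groups overlapped. Under mtDNA NZB it ran from 6.68 to 13.7 CPM (median 9.51) at rest and from 4.95 to 13.9 CPM (median 9.55) after activation. Activated mtDNA NZB libraries fell into 3 at 4.95 to 5.75 CPM and 3 at 13.3 to 13.9 CPM. Its log2 fold change came to 0.83 ± 0.29 for mtDNA B6 (edgeR quasi-likelihood adjusted p = 0.0209) and 0.02 ± 0.31 in mtDNA NZB cells (adjusted p = 0.970; 95% interval -0.61 to 0.65). The rise rested on few libraries: without replicate 1 or replicate 4 of activated mtDNA B6 it was 0.69 (adjusted p = 0.0623) or 0.65 (adjusted p = 0.0790). Its call was lost in 6 of the 35 other settings. These include DESeq2 with the study's settings (DESeq2 adjusted p = 0.0556) and the library set as a term (edgeR adjusted p = 0.114). BLIMP1 is also the factor of plasma cells. Of their genes, Mzb1 lay at or below 1.6 CPM in all libraries with over 500000 counts and Jchain at or below 4.3 CPM in the activated ones. At rest Jchain was at 6.62 to 20.7 CPM in mtDNA B6 and 5.96 to 21.3 CPM in mtDNA NZB libraries of that depth. In activated mtDNA NZB cells the 3 libraries with low Prdm1 were replicates 1, 2 and 5. Their B and plasma cell sums were 107 to 354 CPM and their CD8 and NK sums 94.9 to 158 CPM. In replicates 3, 4 and 6, with high Prdm1, these sums were 763 to 1212 CPM and 336 to 756 CPM. Among activated mtDNA B6 libraries, replicate 4 had the highest Prdm1, 19.5 CPM, with sums of 592 and 316 CPM. The part of plasma, B, CD8 T and NK cells in the Prdm1 result was not tested.

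As log2 ratios within a library, Prdm1 over Bcl6 averaged -2.02 ± 0.35 (SD, n = 6) in resting and -0.49 ± 0.70 (n = 6) in activated mtDNA B6 cells. For mtDNA NZB the averages were -2.30 ± 0.31 (n = 5) and -0.55 ± 0.15 (n = 6). Every activated library had a higher ratio than every resting library with over 500000 counts: the highest resting ratio was -1.70 and the lowest activated one -1.52. In mtDNA NZB cells Prdm1 itself did not pass the test. Across 23 libraries, after removal of group means, Bcl6 and Prdm1 had a Pearson correlation of 0.62, given as a description of libraries that also differ in their content of other cells.

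**Figure D3:**
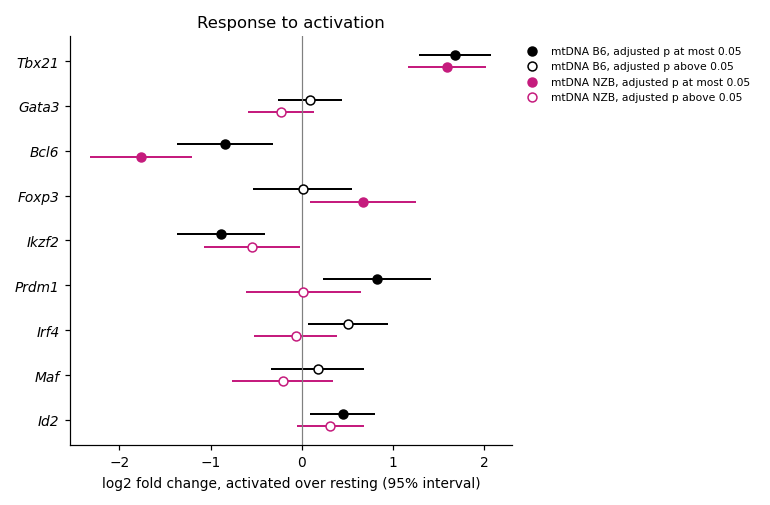
Log2 fold change on activation (activated over resting) of each factor in mtDNA B6 (black) and mtDNA NZB (magenta) cells with 95% intervals; filled points have an adjusted p of at most 0.05. Tbx21 rose in both haplotypes, by 1.68 and 1.59, and Bcl6 fell in both, by 0.84 and 1.76, on the log2 scale.

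Irf4, which grades the receptor signal, came close to the threshold in mtDNA B6 cells. It ran from 33.3 to 92.3 CPM (median 67.7) in resting and from 81.2 to 105 CPM (median 93.9) in activated mtDNA B6 libraries, where 1 resting library, at 92.3 CPM, lay within the activated range. Among mtDNA NZB libraries it ran from 72.9 to 168 CPM (median 90.7) at rest and from 66.7 to 131 CPM (median 115) after activation. The log2 fold changes were 0.50 ± 0.21 (edgeR quasi-likelihood adjusted p = 0.0550) and -0.07 ± 0.22 (adjusted p = 0.821; 95% interval -0.52 to 0.38). The first passed the test in 11 of the 35 other settings, among them limma voom with sample weights (0.61, adjusted p = 0.00626).

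Maf was low and did not pass the test. It ran from 5.74 to 10.2 CPM (median 8.47) at rest and from 6.34 to 11.5 CPM (median 8.89) after activation in mtDNA B6 cells. For mtDNA NZB it ran from 3.21 to 11.4 CPM (median 9.23) and from 4.64 to 11.3 CPM (median 6.82). All 4 ranges overlapped. The log2 fold changes were 0.17 ± 0.25 (edgeR adjusted p = 0.585; 95% interval -0.33 to 0.68) and -0.21 ± 0.27 (adjusted p = 0.531; 95% interval -0.77 to 0.35). Libraries with over 500000 counts held 5 to 53 counts of Maf, which limits what could be detected.

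Of 11 genes of follicular helper cells, 9 were tested. In mtDNA B6 cells 3 rose and 2 fell, and in mtDNA NZB cells 2 rose and 2 fell. Neither Cxcr5, the receptor that leads cells to follicles, at -0.38 ± 0.30 (edgeR adjusted p = 0.310) and -0.68 ± 0.31 (adjusted p = 0.0686), nor Pdcd1, which encodes PD-1, at 0.23 ± 0.24 (adjusted p = 0.446) and 0.46 ± 0.26 (adjusted p = 0.145), passed the test. Il21 held at most 9 counts in a library and was not tested.

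Foxp3 rose in mtDNA NZB cells at the edge of the threshold, and Ikzf2 fell in mtDNA B6 cells. The sort depleted CD25+ cells, in which Foxp3 is mostly found. Foxp3 ran from 9.79 to 18.0 CPM (median 15.7) in resting and from 7.13 to 18.0 CPM (median 16.3) in activated mtDNA B6 libraries. Under mtDNA NZB it ran from 10.01 to 15.7 CPM (median 13.7) at rest and from 9.49 to 39.1 CPM (median 17.2) after activation. Replicates 1 and 2 of activated mtDNA NZB, at 30.2 and 39.1 CPM, stood above all other libraries, and the other 4 lay between 9.49 and 17.3 CPM. The log2 fold change was 0.67 ± 0.28 in mtDNA NZB cells (edgeR quasi-likelihood adjusted p = 0.0480) and 0.01 ± 0.26 in mtDNA B6 cells (adjusted p = 0.987; 95% interval -0.53 to 0.55).

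The Foxp3 call was lost in 22 of the 35 other settings. Without replicate 2 of activated mtDNA NZB the log2 fold change was 0.37 (edgeR quasi-likelihood adjusted p = 0.246), and without replicate 1 it was 0.59 (adjusted p = 0.0866). The same 2 libraries had the lowest sums of B cell markers (132 and 107 CPM) and of CD8 and NK markers (94.9 and 110 CPM) among activated libraries, and replicate 1 was the shallowest of them. The part of these differences in the Foxp3 level was not tested.

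Ikzf2 ran from 6.62 to 14.3 CPM (median 9.96) in resting and from 4.28 to 7.17 CPM (median 5.41) in activated mtDNA B6 libraries and the groups overlapped through 1 activated library at 7.17 CPM. Among mtDNA NZB libraries it ran from 4.58 to 12.4 CPM (median 8.03) at rest and from 4.10 to 8.63 CPM (median 5.25) after activation. The log2 fold change was -0.88 ± 0.23 (edgeR quasi-likelihood adjusted p = 0.00315), a 1.84-fold fall, in mtDNA B6 cells and -0.55 ± 0.26 (adjusted p = 0.0764) in mtDNA NZB cells. Ikzf2 was among the rarer members, with 6 to 55 counts in libraries of over 500000. The resting mtDNA B6 libraries with the 3 highest granulocyte sums had Ikzf2 levels of 12.7, 9.75 and 14.3 CPM, and the other 3 had 6.62, 7.42 and 10.2 CPM. Whether cells other than T cells carried part of it was not tested.

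All 15 genes of a regulatory T cell list were tested, and 5 rose and 1 fell in mtDNA B6 cells while 6 rose and 1 fell in mtDNA NZB cells. The list includes Il2ra, which rose by 4.68 ± 0.38 and 5.00 ± 0.41 on the log2 scale, and Tnfrsf18, which encodes the costimulatory receptor GITR and rose by 1.79 ± 0.19 and 1.75 ± 0.19. Both are also genes of activated conventional T cells. Ctla4, an inhibitory receptor, at 0.34 ± 0.22 (edgeR adjusted p = 0.214) and 0.04 ± 0.23 (adjusted p = 0.891), and the cytokine Il10 at 0.45 ± 0.37 (adjusted p = 0.339) and 0.79 ± 0.42 (adjusted p = 0.118) did not pass the test. Ikzf4, which encodes Eos, a partner of FOXP3, rose by 1.24 ± 0.28 and 0.99 ± 0.30. The 2 genes of 7 in a Th17 list that could be tested rose in both haplotypes: Il17a, its cytokine, by 3.13 ± 0.77 and 3.11 ± 0.82, and the chemokine receptor Ccr6 by 1.93 ± 0.39 and 1.63 ± 0.44.

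Id2 rose in mtDNA B6 cells by a small amount. It ran from 260 to 329 CPM (median 300.3) in resting and from 297 to 540 CPM (median 386) in activated mtDNA B6 libraries, where the groups overlapped. For mtDNA NZB it ran from 185 to 391 CPM (median 348) at rest and from 324 to 522 CPM (median 370.3) after activation. The log2 fold changes were 0.45 ± 0.17 (edgeR quasi-likelihood adjusted p = 0.0367), a 1.36-fold rise, and 0.31 ± 0.18 (adjusted p = 0.142). Without replicate 1 or replicate 4 of activated mtDNA B6, the highest libraries at 540 and 516 CPM, the first was 0.35 (adjusted p = 0.110) or 0.37 (adjusted p = 0.102). The Id2 call in mtDNA B6 cells was lost in 7 of the 35 other settings. Among them were DESeq2 with the study's settings (DESeq2 adjusted p = 0.0582) and the library set as a term (edgeR adjusted p = 0.143). Id3, the related inhibitor, did not pass the test, with -0.63 ± 0.28 (adjusted p = 0.0665) and 0.25 ± 0.29 (adjusted p = 0.488).

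A list of 30 further transcription factors of helper cells served as partners, and 28 were tested. In mtDNA B6 cells 11 rose and 6 fell, with a median log2 fold change of -0.04, and in mtDNA NZB cells 5 rose and 10 fell, with a median of -0.26. Batf, an AP-1 partner of IRF4, rose by 0.77 ± 0.13 and 0.70 ± 0.14. Stat6, the IL-4 signal carrier, fell by 0.28 ± 0.10 and 0.38 ± 0.10 on the log2 scale. Stat4, which carries IL-12 signals, rose by 1.22 ± 0.30 in mtDNA B6 cells and stood at 0.72 ± 0.33 (edgeR adjusted p = 0.0636) in mtDNA NZB cells. Eomes, a T-box relative of Tbx21, rose by 1.05 ± 0.18 and stood at 0.28 ± 0.19 (adjusted p = 0.211). Bach2, a repressor that holds back effector fates, rose by 0.44 ± 0.16 and stood at -0.34 ± 0.17 (adjusted p = 0.0932). Rora stood at -0.29 ± 0.35 (adjusted p = 0.515) in mtDNA B6 cells and fell by 2.09 ± 0.38 on the log2 scale in mtDNA NZB cells. Runx3 passed in neither, with 0.50 ± 0.23 (adjusted p = 0.0741) and -0.21 ± 0.24 (adjusted p = 0.467). None of the 28 had a response that differed between haplotypes at an adjusted p of at most 0.05.

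The second question was whether the haplotype mattered. At rest, none of the 9 members passed the test between mtDNA NZB and mtDNA B6 cells, beside 1.90% of all genes called higher and 0.861% lower with mtDNA NZB. Irf4 came nearest: its medians were 90.7 CPM in resting mtDNA NZB and 67.7 CPM in resting mtDNA B6 libraries, and the ranges, 72.9 to 168 CPM and 33.3 to 92.3 CPM, overlapped. Its log2 difference (mtDNA NZB minus mtDNA B6) was 0.75 ± 0.22 (edgeR quasi-likelihood adjusted p = 0.0607; 95% interval 0.29 to 1.20). It passed the test in 5 of the 34 other settings, among them limma voom with sample weights (1.07, adjusted p = 0.00402) and the fit of 21 libraries (0.88, adjusted p = 0.0294). Within set 2 of the libraries, with 1 of mtDNA NZB and 4 of mtDNA B6, it was 1.32. Within set 3, with 3 and 2, it was 0.45.

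Bcl6 stood next, with a resting difference of 0.70 ± 0.25 (edgeR quasi-likelihood adjusted p = 0.113; 95% interval 0.18 to 1.23). Of the 5 mtDNA NZB libraries with over 500000 counts, 3 lay above every mtDNA B6 library, at 50.7, 55.8 and 76.5 CPM beside at most 40.2 CPM. Gata3 differed by 0.39 ± 0.17 (adjusted p = 0.196) and Prdm1 by 0.47 ± 0.31 (adjusted p = 0.414). The other 5 members differed by -0.33 to 0.07 on the log2 scale. Of the partner factors, 5 of 28 were higher in resting mtDNA NZB cells and none lower: Rora by 1.27 ± 0.35, Stat5a by 1.14 ± 0.29, Satb1 by 0.65 ± 0.18, Stat3 by 0.61 ± 0.17 and Stat5b by 0.52 ± 0.14. Their adjusted p-values lay between 0.0378 and 0.0486 in edgeR's quasi-likelihood test, just inside the threshold. These calls rest on few libraries: no gene was called higher at rest without replicate 5 of resting mtDNA NZB, without replicate 1 or 4 of resting mtDNA B6, in a fit of the 12 resting libraries alone or with the library set as a term, and 2 genes were without replicate 3 of resting mtDNA B6. The erythroid marker sum over 6 libraries each had a median of 1383 CPM in resting mtDNA B6 and 224 CPM in resting mtDNA NZB libraries, and its part in these differences was not tested.

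After activation, none of the 9 members passed the test, and neither did any other gene (0% of 10566 at an adjusted p of at most 0.05 in edgeR's quasi-likelihood test, 327 at an unadjusted p under 0.05; DESeq2 also called 0 and limma voom 1). Foxp3 had the widest difference of the members, 0.50 ± 0.26 (95% interval -0.04 to 1.04). The intervals of Tbx21 (-0.52 to 0.24), Gata3 (-0.27 to 0.43) and Id2 (-0.42 to 0.29) leave out a difference of 1 on the log2 scale in either direction. The same holds for Bcl6 (-0.77 to 0.34), Ikzf2 (-0.52 to 0.54), Irf4 (-0.26 to 0.61), Maf (-0.85 to 0.20) and Prdm1 (-0.93 to 0.25). For these 8 members a 2-fold difference between activated haplotypes thus lay outside the 95% interval of this fit. Under other settings the difference reached -0.58 for Prdm1 and -0.55 for Maf, and intervals for those settings are not given here.

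**Figure D4:**
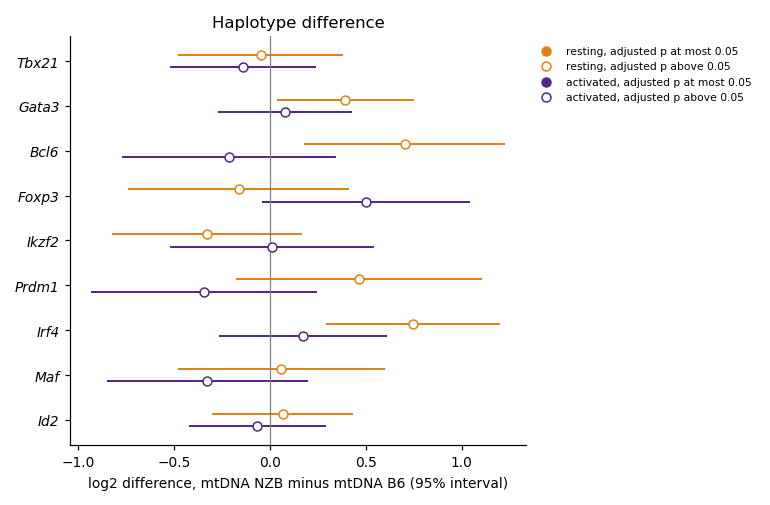
Log2 difference between haplotypes (mtDNA NZB minus mtDNA B6) of each factor at rest (orange) and after activation (purple) with 95% intervals; open points have an adjusted p above 0.05, which holds for all 18 points. Irf4 and Bcl6 had the widest resting differences, 0.75 and 0.70, and Foxp3 the widest after activation, 0.50.

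Several members passed the test in one haplotype and not in the other, so the difference between the responses was tested itself. None of the 9 passed, and neither did any other gene (0% of 10566; 1512 at an unadjusted p under 0.05; the smallest adjusted p was 0.113 in edgeR's quasi-likelihood test; DESeq2 called 1 gene and limma voom 0). Bcl6 had the widest difference, its log2 fold change being 0.92 ± 0.37 lower in mtDNA NZB cells (-0.92, adjusted p = 0.266; 95% interval -1.68 to -0.15). Prdm1 (-0.81 ± 0.42, adjusted p = 0.384), Foxp3 (0.66 ± 0.38, adjusted p = 0.434) and Irf4 (-0.57 ± 0.31, adjusted p = 0.392) followed. Tbx21 had the smallest, -0.09 ± 0.28 (adjusted p = 0.935; 95% interval -0.66 to 0.48). A response called in one haplotype only is therefore not shown to differ between them for any of the 9 members.

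Ordered by the mean level of the 4 groups, Tbx21 was highest in activated mtDNA B6, then activated mtDNA NZB, resting mtDNA B6 and resting mtDNA NZB cells. Its only step between neighbours that passed the test was from activated mtDNA NZB to resting mtDNA B6 (edgeR quasi-likelihood adjusted p = 5.46e-07). Bcl6 ran in the opposite direction, from resting mtDNA NZB through resting mtDNA B6 and activated mtDNA B6 to activated mtDNA NZB, and its only such step was between the mtDNA B6 groups (adjusted p = 0.00892). For the other 7 members no neighbours in the order passed the test.

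The genes whose level was most like that of a member were found over the 23 libraries with over 500000 counts, by the Pearson correlation of log2 CPM, as a description without a test. These libraries share the contrast between rest and activation and differences in other cells. Tbx21 was most like Ddt (0.97), Cxcr3 (0.96) and Dhrs1 (0.95), and with group means removed its correlation with Cxcr3 was 0.77. Bcl6 was most like Fgd3, Tgif1 and Mast4 (0.95 each). Ikzf2 was most like Sostdc1 (0.84), S100a8 (0.81) and Cxcl2 (0.81), of which S100a8 is a granulocyte gene. Irf4 was most like Egr3 (0.74), an early gene of receptor signals, Zcwpw1 (0.73) and Nfatc1 (0.69). Gata3 was most like Ncoa3 (0.83), Nfx1 (0.72) and Pdlim4 (0.72), and Foxp3 like Zc3h18 (0.74), Lta (0.71) and Tiam1 (0.70). Prdm1 was most like Slc2a3 (0.79), Abhd17b (0.77) and Stx7 (0.77), Id2 like Adgrg5 (0.82), Sash3 (0.81) and Ppp3cc (0.80), and Maf like Tada2b (0.69), Plxnc1 (0.67) and Appl1 (0.66). Between members, the closest were Tbx21 and Id2 at 0.63, and the most opposed were Tbx21 and Bcl6 at -0.71. With group means removed, the correlation of Tbx21 with Bcl6 was 0.21, so the opposition lay between the groups and not within them.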

How the data were processed

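RNA of 24 Tconv libraries was measured by bulk MARS-seq, a protocol that reads polyadenylated RNA from its 3′ end. Per the labels and methods, the authors trimmed reads with cutadapt, mapped them with STAR to the last 1000 bases of GRCm39 transcripts, counted genes with HTSeq, and deposited UMI counts corrected for saturation. A second deposited table of larger counts served as an alternative, and 1 of its columns matched no sample and was not used. Groups were taken from the labels. The labels give 30 ng of input RNA, whereas the methods state another amount. Within groups all 60 pairs of libraries differed by more than sampling noise.

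Counts were fitted with edgeR 4.0.16 (TMM, filterByExpr, quasi-likelihood test, 4 groups together, Benjamini-Hochberg adjustment) in R 4.3.3, with a prior count of 2 for log2 CPM, no fold cut-off, and the SE taken as the fold change over the square root of F. The fit was tested on simulated data. Alternatives used DESeq2 1.42.0, limma 3.58.1, other filters, scalings and libraries. Figures were drawn in Python 3.11.15. Members and gene lists were chosen with earlier results of these data known. All members were named, with a set part of each list whatever its values, and the 3 most alike genes of each member, skipping predicted genes. Of these, 2 listed genes are not reported here. Members whose libraries do not overlap were counted without the smallest library, a choice made after seeing the data. Promoter windows were read from the GRCm39 genome at GENCODE starts.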

Additional observations from a re-analysis of the deposited data

Results flagged for a closer look

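In each of the 36 combinations of 9 members and 4 groups, the highest and lowest library was compared with the rest by the gap to its neighbour over the range of the group (Dixon's criterion for 6 libraries, 0.625), which chance exceeds in about 1 in 20 groups. It singled out 2 libraries. In resting mtDNA B6 cells, Bcl6 was 40.2 CPM in replicate 6, beside at most 30.2 CPM in the other 5. In activated mtDNA NZB cells, Id2 was 522 CPM in replicate 4, beside at most 398 CPM in the other 5.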

How the results depend on the processing

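The 5 comparisons were recomputed for the 9 members under 11 other settings and without each of the 24 libraries in turn. Of 1548 member values so obtained, 1491 kept their side of the threshold, 37 lost and 20 gained a call, no called value turned its direction, and 54 values with no call had the other sign. Tbx21 in both haplotypes and Bcl6 in mtDNA NZB cells kept their calls in all of them. In mtDNA B6 cells the count of members that rose on activation, 3, was 1 with DESeq2, a replicate block by label number and the library set as a term, 2 with the second count table, 4 (with Irf4) with limma voom, no filter on low counts, the fit of 12 libraries and 21 libraries, and 1 to 4 without 1 library (1 without replicate 1 or 4 of activated mtDNA B6). The count that fell, 2, was 1 with the second count table and with the library set as a term. In mtDNA NZB cells the count that rose, 2, was 1 with DESeq2, no filter on low counts, at least 20 counts in 6 libraries, the second count table, the fit of 12 libraries, the replicate block by label number and the library set as a term, and 1 to 2 without 1 library, each time through Foxp3. With the replicate block by title number it was 2, with Id2 in place of Foxp3. The count that fell, 1, was 2 with limma voom and with the replicate block by label number and 1 to 2 without 1 library (2 without replicate 5 of resting mtDNA NZB), through Ikzf2. At rest the count higher in mtDNA NZB cells, 0, was 1 with limma voom and with 21 libraries (without replicates 2 and 6 of resting and 6 of activated mtDNA NZB), and 0 to 1 without 1 library (1 without replicate 3 or 6 of resting mtDNA NZB or 2 of resting mtDNA B6), each time Irf4. The cause of these shifts was not tested. The methods state that isolated cells were divided between rest and activation, and 9 label numbers occur in both states of a haplotype. What these numbers mark is not stated, but same-numbered libraries may share an origin. Deviations of same-numbered libraries correlated by -0.158 to 0.253 over 9 pairs by label number, 3 of them over 0.1, and by -0.185 to 0.253 over 12 pairs by title number. Such weak correlations cannot decide whether the libraries are paired, and the main fit had no block. With the replicate block by title number the genes called on activation were 4771 in mtDNA B6 and 5400 in mtDNA NZB cells, and by label number 4291 and 4136. By label number Prdm1 (edgeR adjusted p = 0.0689) and Id2 (adjusted p = 0.135) in mtDNA B6 and Foxp3 (adjusted p = 0.474) in mtDNA NZB cells lost their calls, and Ikzf2 in mtDNA NZB cells gained one (adjusted p = 0.0498). Over all genes, the count that differed at rest, 292, ran from 0 in the fit of 12 libraries and without replicate 5 of resting mtDNA NZB or 4 of resting mtDNA B6 to 662 with 21 libraries, and that of differing responses, 0, was 113 with 21 libraries, none of them a member. Counting non-overlapping members over all 24 libraries removed Bcl6 in mtDNA NZB cells (0 beside 1). Depth limits Maf, Ikzf2 and Prdm1 most, which had 4 to 92 counts in libraries of over 500000.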
